A study of Mus musculus with 319 samples.

Results

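Muscle RNA of 319 arrays was compared between animals of low and high number in 1 mouse intercross. The source name of each sample carries an animal number, and numbers 1 to 128 formed the early group (110 arrays) while numbers 141 to 359 formed the late group (209 arrays), so all 319 arrays of the series belong to 1 of the groups. Both groups hold the same kind of animal: F2 mice of both sexes from C57BL/6J and C3H/HeJ parents, every one on an ApoE null background, fed a high fat Western diet from week 8 to week 24. The labels do not say which muscle was taken, what the number stands for, or when an animal was dissected or its array run. Each animal's RNA (Cy3) was set against a common pool (Cy5) made of equal RNA portions from all samples. The groups differ in no treatment or genotype named in the labels, so the comparison describes what drifts along the order of the animals.

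ApoE clears lipoprotein remnants from blood, and mice without it have high blood cholesterol on a Western diet. Skeletal muscle consists mainly of fast and slow fibres, whose share differs between named muscles, and a dissected muscle also carries tendon, nerve, vessels, fat and at times a lymph node. Transcription factors laid down in the embryo, such as those of the Hox clusters, mark where along the body and limb a tissue lies. Clock genes cycle with the time of day in muscle as in other tissues.

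The values are log2 ratios of animal over pool, so a value of 1 means a doubled level relative to the pool, and ratios of different genes say nothing about which gene is the more abundant. The direction was read from Y-linked genes, as given with those genes further on. That check would show a reversed array of an animal without a Y chromosome, and none was seen. It can hardly show a reversed array of an animal with a Y chromosome, whose ratio lies closer to the pool. Correlations between arrays over the 23169 tested probes ran from -0.603 to 0.848, and 3755 of 50721 pairs lay under -0.3. Per array, the median log2 ratio lay between -0.08 and 0.14 in the early group (median 0.03) and between -0.07 and 0.14 in the late group (median 0.04). Its mean was higher by 0.01 in the late group (two-sided permutation test, p = 0.00396, adjusted p = 0.0158 over 4 measures). The SD of ratios on an array (median 0.374 early, 0.351 late; adjusted p = 0.0958), the share of blank values (0.580% and 0.633%; adjusted p = 0.260) and the share at the ends of the scale (0.0128% and 0.00428%; adjusted p = 0.260) did not pass the threshold in the same tests.

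Many genes differed between early and late animals, nearly all of them by little. Of 10748 genes tested with limma, 3241 (30.2%) had a Benjamini-Hochberg adjusted p under 0.05, 1920 of them higher in late animals (17.9%) and 1321 lower (12.3%). A difference of at least 0.3 log2 units was found among them for 32 genes higher (0.298%) and 182 lower (1.69%) in late animals. The median difference over all genes was 0.01 and the median SD of a gene was 0.241 within the early and 0.212 within the late group. On the level of probes, 6446 of 23169 passed (27.8%), 3957 higher (17.1%) and 2489 lower (10.7%), of which 57 (0.246%) and 292 (1.26%) differed by at least 0.3. The share of calls that were higher was 59.2%, and 47.4% with each array's median subtracted.

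Most of these differences did not mark a step at the break in the numbers. In only the animals 81 to 128 (38 arrays) and 141 to 188 (46 arrays), 14 genes were higher and 25 lower in late animals. Of the 214 genes with a difference of at least 0.3 over all animals, 4 (Skap2, Hoxa11, Zic1 and Rtkn2) were called again there and 160 had the opposite sign. With fewer arrays the SEs were larger there, as for Kera (0.57 ± 0.230, against an SE of 0.138 over all animals). A call lost near the break is thus no sign by itself that a difference was absent. With blocks of 20 consecutive numbers as a random block, 405 genes were called higher and 208 lower, and 73 of the 214 genes kept their call. That fit applied 1 within-block correlation, 0.0514, to every gene. For genes more alike among neighbouring numbers, such as Myh7 (r = 0.487 between neighbouring arrays), it may widen the SE too little. A call kept with the block is a weak check for them. Of the 4 that were called near the break, Hoxa11 (adjusted p = 0.0925) and Rtkn2 (adjusted p = 0.102) were not past the threshold with that block, whereas Skap2 and Zic1 were. Many of the lists and genes below are therefore given with these settings, and where a setting is not named the call may have ended. Counts in a list are to be read against the 17.9% higher and 12.3% lower among all genes.

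Skap2, an adaptor protein of immune cells, showed the largest difference of all genes. Its log2 ratio in early animals was -4.61 at the lowest, 0.23 at the median and 1.41 at the highest, and in late animals -5.20, -4.28 and 1.08. The late group was lower by 3.30 ± 0.189 (SE), with an adjusted p of 3.01e-44 by limma. The groups overlapped over nearly the whole range, because each array lay at either a low or a high level with no value between -3.09 and -1.83. What differed was the share of animals at each level. In the early group 85 of 110 arrays lay at the high level (77.3%, 95% Wilson interval 68.6% to 84.1%, which covers counting error only) and in the late group 20 of 209 (9.57%, interval 6.28% to 14.3%). The median of the low arrays was -3.93 in the early and -4.34 in the late group. Within the high level, 30 early and 5 late arrays lay above 0.7 and 55 early and 15 late arrays below it.

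The 20 late animals with high Skap2 stood in 3 runs of numbers. The ends of the runs were set from these same values, so the shares within them are high in part by that choice. The late numbers 200 to 224 held 10 of 22 arrays at the high level, numbers 247 to 255 held 5 of 8, and numbers 299 to 305 held 5 of 7. None of the 57 late arrays below number 200 and none of the 50 above number 305 lay there. In every block of 20 early numbers both levels occurred, with the high level on 15 of 16 arrays at numbers 104 to 120 and on 13 of 19 at numbers 41 to 60. Near the break the difference was -3.87 ± 0.278 (adjusted p = 1.46e-19), and with the random block it was called too (adjusted p = 2.71e-26).

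**Figure D1:**
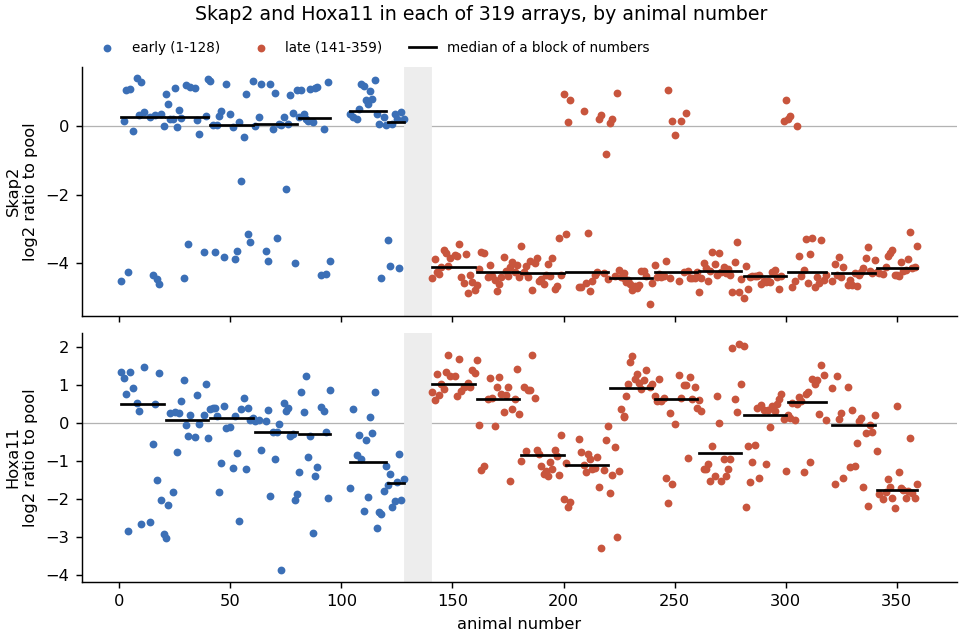
Log2 ratio to the pool (vertical axes) of Skap2 and Hoxa11 against animal number, 1 point per array, early animals in blue and late in red, black bars the median of each block of 20 numbers. Skap2 sits at a high or a low level with 85 of 110 early and 20 of 209 late arrays at the high one, and Hoxa11 switches between runs of high and low animals.

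Among the other genes, Ppp6r2, a regulatory subunit of protein phosphatase 6, followed Skap2 most closely. Across arrays its r with Skap2 was 0.663 in the early group (110 arrays) and 0.526 in the late group (209 arrays), the largest in size of all genes in each. Its ratio ran from -0.32 over a median of 0.10 to 0.47 in early animals and from -0.40 over -0.12 to 0.39 in late animals. The difference was -0.20 ± 0.019 (adjusted p = 1.40e-18), and -0.28 ± 0.0296 in the animals near the break (adjusted p = 1.94e-11). The ranges overlapped widely.

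In gene order along chromosome 6 the Hoxa cluster follows Skap2, and most of its measured genes were higher in late animals by small amounts. Of the 20 measured genes nearest Skap2, 10 on either side, 7 were higher and 6 lower, none by more than 0.45. Of all genes 17.9% were higher and 12.3% lower. Hoxa2 (0.11), Hoxa5 (0.13 ± 0.0163, adjusted p = 2.52e-11), Hoxa7 (0.13), Hoxa10 (0.16) and Hoxa11 (0.45 ± 0.139, adjusted p = 0.00908) were higher, while Hoxa9 differed by -0.05 (adjusted p = 0.227). Hoxa2, Hoxa5, Hoxa7 and Hoxa10 were called with the random block as well. Near the break Hoxa10 was called (adjusted p = 0.0305), while Hoxa2 (adjusted p = 0.236), Hoxa5 (adjusted p = 0.630) and Hoxa7 (adjusted p = 0.0530) were not. Within groups, r with Skap2 ran from -0.349 (Hoxa7, early) to -0.0173 (Hoxa9, early). The other clusters, chosen like these genes after their values were seen, showed no common direction. Of the HoxB genes 0 of 7 were higher and 3 lower, of HoxC 4 and 1 of 8, and of HoxD 1 and 3 of 8. Counts such as 1 of 8 lie near the shares over all genes.

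Hoxa11, which patterns the middle part of the limb, lay on 1 side of 0 in some blocks of numbers and on both sides in others. At numbers 21 to 40, 9 arrays lay above 0 and 9 below, and at 281 to 300 there were 11 and 9. Its ratio was -3.89, -0.28 and 1.49 at the lowest, median and highest in early animals and -3.30, 0.15 and 2.08 in late animals, so the ranges nearly coincided. Early block medians went from 0.51 at numbers 1 to 20 to -1.59 at numbers 121 to 128, where all 8 arrays lay below 0. At numbers 141 to 160 all 19 arrays lay at 0.62 or above, with a median of 1.02. At numbers 201 to 220 all 17 lay below 0 again (median -1.12), at 221 to 240 the median was 0.92, and at 341 to 359, where 17 of 18 lay below 0, it was -1.78. The difference near the break, 1.66 ± 0.207 (adjusted p = 2.03e-08), was more than 1.5 times that over all animals.

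Other transcription factors that mark position in the body differed as well, in both directions. They were singled out after their values were seen, except Zic1 and Irx5. Tbx1, a factor of branchial and head muscles, went from -1.70 over a median of -0.30 to 1.41 in early and from -1.47 over 0.53 to 2.39 in late animals and was higher by 0.58 ± 0.0838 (adjusted p = 5.03e-09). En1, which sets the ventral side of the limb, was higher by 0.54 ± 0.0836 and Zic1, a factor of dorsal trunk tissue and of brown fat, by 0.41 ± 0.0856. Irx5, a homeobox gene, was lower (-0.42 ± 0.0682), with a wider spread in late animals (adjusted p = 0.00939). Pitx1, which gives the hind limb its identity, differed by -0.26 ± 0.0620 (adjusted p = 0.000496). Near the break Tbx1 stood at -0.21 (adjusted p = 0.561), while Zic1 was higher there by 0.66 ± 0.157 (adjusted p = 0.0305). En1 (0.51, adjusted p = 0.145), Irx5 (-0.13, adjusted p = 0.574) and Pitx1 (-0.15, adjusted p = 0.603) were not called there.

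Genes of tendon and its sheath were among the largest increases in late animals. Of 15 tendon and connective genes 13 were measured, 8 were higher (0 lower), and their median difference was 0.31, against 0.01 over all genes. With the random block 7 of the 8 were called, and near the break 0, at a median of 0.20. The mean of the list in an array ran from -1.61 to 0.78 in the early group (median -0.22) and from -1.05 to 0.98 in the late group (median 0.24).

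Kera, a proteoglycan that spaces collagen fibrils, lay at -3.21, -0.67 and 2.26 (lowest, median, highest) in early and at -2.59, 0.91 and 2.52 in late animals. It was higher by 1.28 ± 0.138 (adjusted p = 6.03e-15). Tnmd, a membrane protein of mature tendon cells, lay at -3.44, -0.51 and 1.96 in early and at -3.04, 0.68 and 2.14 in late animals and was higher by 1.07 ± 0.119 (adjusted p = 3.24e-14). In both genes the ranges overlapped almost fully and the bulk of the late animals lay above the early median. Fmod, another fibril proteoglycan, was higher by 0.82 ± 0.102, the lubricating Prg4 by 0.82 ± 0.109 and Chodl, a lectin-like membrane protein, by 0.31 ± 0.0436. Chad (1.01 ± 0.129) and Comp (0.63 ± 0.0872), matrix proteins of cartilage and tendon, were higher too and belong to the list of bone and cartilage genes. Of that list 5 of 16 were higher and 1 lower, against 17.9% and 12.3% of all genes. With the random block 2 were called higher and 1 lower, and near the break 0 were called. Scx, the transcription factor of the tendon lineage, differed by 0.07 (adjusted p = 0.174), and the connective fibroblast genes Pdgfra (-0.04), Dpt (-0.08), Clec3b (0.09) and Mfap5 (0.02) did not pass either.

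The tendon genes did not drift steadily with the number. Kera had a block median of -0.88 at numbers 1 to 20 and -0.84 at 104 to 120, then 0.86 at 121 to 128 before the break and 0.91 at 141 to 160 after it. Its late medians lay between 0.14 and 1.39 up to number 340, and the last, at 341 to 359, was -1.58 with all 18 arrays below 0. Tnmd took the same course, from -0.83 to 0.53 at 121 to 128 and 0.94 at 141 to 160, with -1.01 in the last block. Both medians lay below those of every early block, within the range of the early arrays. The late slope of Chad (-0.53 ± 0.118 per 100 numbers, adjusted p = 0.00912) and of Fmod (-0.42 ± 0.0919, adjusted p = 0.00812) was called falling. Without the 18 arrays above number 340 these slopes were -0.06 (adjusted p = 0.851) and -0.04 (adjusted p = 0.894).

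**Figure D2:**
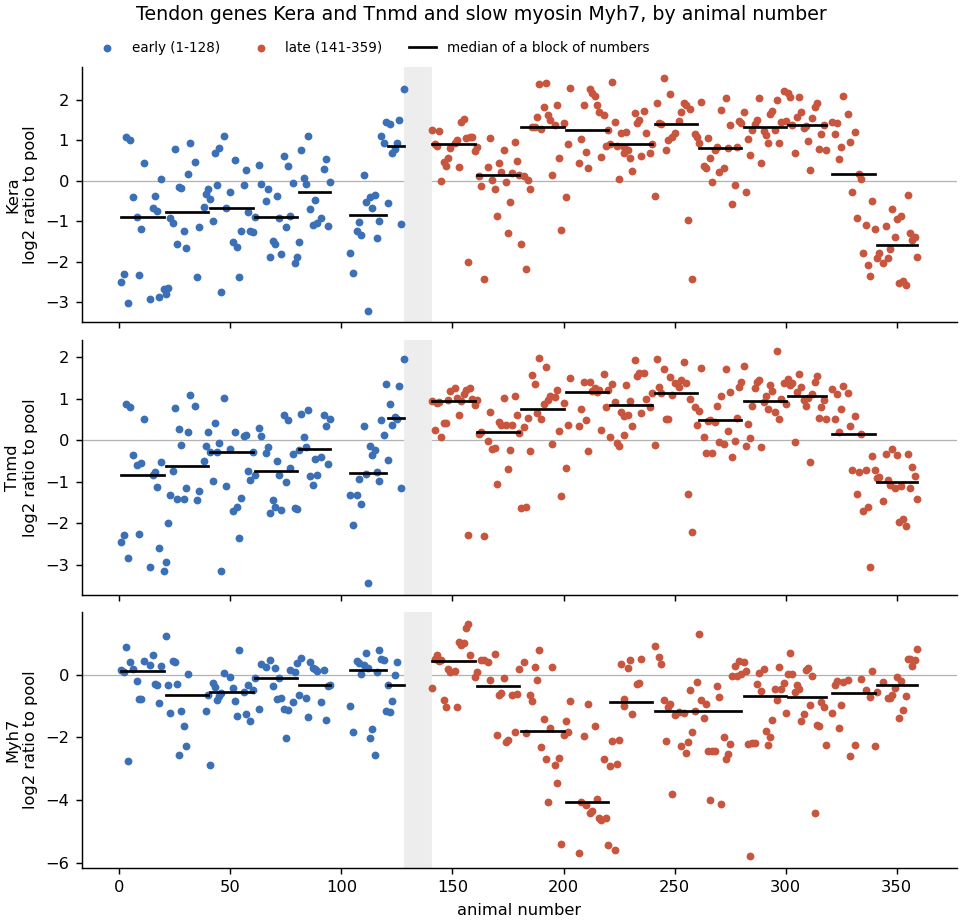
Log2 ratio to the pool (vertical axes) of Kera, Tnmd and Myh7 against animal number, 1 point per array, early animals in blue, late in red, black bars the median of each block of 20 numbers. Kera and Tnmd step up at numbers 121 to 128, before the break, and drop in the last block, and Myh7 dips to a median of -4.05 at numbers 201 to 220.

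Further genes led the list of increases by their t statistic. Wif1, a secreted inhibitor of Wnt signals, was higher by 0.31 ± 0.0386 and Egfl6, a matrix protein with EGF repeats, by 0.45 ± 0.0575. Cyp2c38, a cytochrome P450 of lipid and drug oxidation, was higher by 0.37 ± 0.0455 and Tsc22d3, which is induced by glucocorticoids, by 0.31 ± 0.0399. Bex1, an adaptor present in regenerating muscle, was higher by 0.39 ± 0.0517. All 5 had adjusted p values of 1.53e-10 or lower and all were called with the random block. Near the break they differed by 0.04 (Bex1) to 0.24 (Egfl6) and none was called.

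Genes of muscle repair were higher more often than lower. Of 15 measured regeneration genes 7 were higher and 1 was lower, with a median of 0.08, against 17.9% and 12.3% of all genes. With the random block 1 was called, and near the break 0, where Myf5 (-0.02) and Igf1 (0.20) had the opposite sign. Ankrd1, a stretch-responsive protein of the sarcomere, was higher by 0.42 ± 0.0771 (adjusted p = 6.16e-06). The myogenic factor Myf5 (0.08), the cardiac and embryonic troponin Tnnt2 (0.11) and the satellite cell cadherin Cdh15 (0.11) were higher by small amounts. Igf1, a growth factor of muscle, went the other way (-0.25 ± 0.0683, adjusted p = 0.00307). Pax7, the factor that defines satellite cells, differed by 0.02 (adjusted p = 0.608). Of the mitochondrial ribosome genes 5 of 11 measured were higher and 0 lower (median 0.05), among them Mrpl23 (0.10), Mrpl28 (0.07), Mrpl16 (0.06) and Mrpl19 (0.09), and none of the 11 was called with the random block or near the break, where Mrpl23 (-0.03), Mrpl28 (-0.03) and Mrpl16 (-0.02) had the opposite sign.

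Genes of slow fibres were lower in late animals and more variable. Of 11 measured genes 8 were lower and 0 higher, with a median of -0.43, and 6 were called with the random block. Near the break the median was 0.08 and 0 were called. Myh7, the slow myosin heavy chain, lay at -2.89, -0.33 and 1.24 (lowest, median, highest) in early and at -5.77, -0.79 and 1.61 in late animals. It differed by -0.68 ± 0.168 (adjusted p = 0.000920). Its probe gave a value on 97 early and 189 late arrays. The low end of the late group lay far below that of the early group, while the high ends were close. Tnnc1, the slow troponin C (-0.57 ± 0.144), Atp2a2, the slow fibre calcium pump (-0.48 ± 0.120), and Tnni1, the slow troponin I (-0.43 ± 0.102), were lower as well. Csrp3 (-0.19, adjusted p = 0.123), Casq2 (-0.05) and Ankrd2 (-0.06) did not pass.

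Slow fibre values were lowest at late numbers 201 to 220 and were low in other late blocks too. The median over arrays of the list mean was -2.16 at 201 to 220, -1.01 at 181 to 200 and -1.07 at 261 to 280. The lowest Myh7 value of the late group (-5.77) lay at numbers 281 to 300. For Myh7 the block median was 0.44 at numbers 141 to 160, -1.79 at 181 to 200, -4.05 at 201 to 220 and -0.89 at 221 to 240. At numbers 201 to 220 all 17 arrays of Myh7 lay below 0, from -5.69 to -0.84, whereas at 341 to 359 the median was -0.33. The mean of the list ran from -1.77 to 0.83 in the early group (median -0.11) and from -3.18 to 1.00 in the late group (median -0.41). Of 15 fast fibre genes 1 was measured, Casq1, the calcium store protein of fast fibres, which was higher in late animals (0.15 ± 0.0566, adjusted p = 0.0275) and was not called with the random block or near the break.

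Genes of B and T lymphocytes were lower on average in late animals, though the medians of the groups lay close. Of 23 measured genes 14 were lower and 0 higher (median -0.12), and 0 were called with the random block. Cd22, a receptor of B cells, lay at -4.94, -3.69 and 3.21 (lowest, median, highest) in early and at -5.10, -3.96 and 2.68 in late animals. It differed by -0.83 ± 0.249 (adjusted p = 0.00679). The medians lay close and the ranges nearly coincided. Ptprcap, a partner of the leukocyte phosphatase CD45, differed by -0.70 ± 0.195, the T cell receptor chain Cd3g by -0.66 ± 0.177, the follicle homing receptor Cxcr5 by -0.64 ± 0.178 and the B cell coactivator Pou2af1 by -0.69 ± 0.205. The chemokine receptor Ccr6 (-0.69 ± 0.205), the B cell antigen receptor chain Cd79b (-0.58 ± 0.164) and the B cell surface protein Ms4a1 (-0.43 ± 0.110) were lower too. None of these was called with the random block (adjusted p from 0.0776 to 0.149), and near the break all 8 stood above 0. Ccr7 (0.03), Pax5 (-0.03) and Cd4 (-0.04) did not pass.

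High lymphocyte levels were most common at early numbers 61 to 80. There the block median of Cd22 was 0.53, against -4.34 to -2.56 in the other early blocks and -4.30 to -3.11 in the late blocks. The mean of the lymphocyte list ran from -1.73 to 1.41 in the early group (median -1.17) and from -1.66 to 1.61 in the late group (median -1.26). In bulk tissue fewer cells of a type and less RNA per cell cannot be told apart. With the lymphocyte mean score as a covariate, 1023 genes were higher and 726 lower, and 105 of the 214 genes kept their call. MHC class II genes, which present antigen, were lower in 5 of 8 cases and interferon response genes in 14 of 33 (0 higher in either), against 12.3% of all genes. With the random block 0 of 8 and 1 of 33 were called, and near the break 0, at medians of 0.08 and 0.16. Of the macrophage genes 2 of 23 were lower, a smaller share than the 12.3% of all genes, and 1 was called with the random block. Laptm5, a lysosomal protein that lymphocytes express too, was the lower of them (-0.58 ± 0.121, adjusted p = 8.36e-05).

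**Figure D3:**
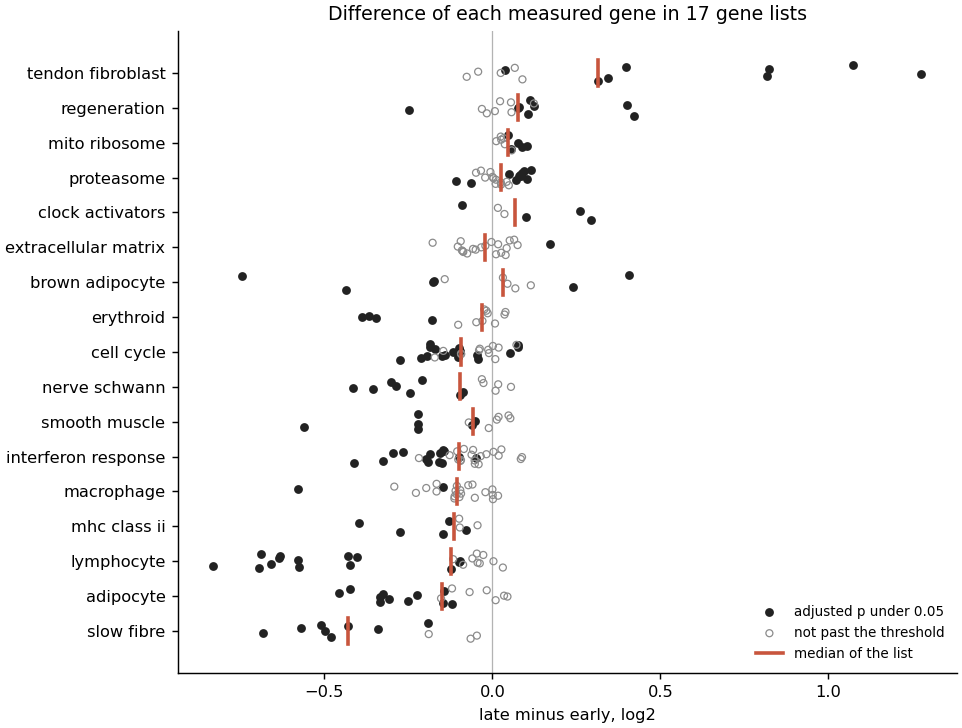
Late minus early difference (log2, horizontal axis) of each measured gene in 17 lists, filled points with a limma adjusted p under 0.05, open points not past it, red bars the median of the list. Tendon genes reach 1.28 on the right with a median of 0.31, and slow fibre genes lie on the left with a median of -0.43.

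Genes of fat storage were lower in late animals. Of 18 measured adipocyte genes 11 were lower and 0 higher (median -0.15), and 5 were called with the random block. Plin1, which coats the lipid droplet, lay at -2.47, -0.22 and 1.33 in early and at -2.44, -0.77 and 0.95 in late animals, a difference of -0.46 ± 0.0847 (adjusted p = 8.97e-06). The desaturase Scd1 differed by -0.42 ± 0.0926, the triglyceride enzyme Dgat2 by -0.31 ± 0.0644 and the fat cell regulator Pparg by -0.14 ± 0.0315. Lep (0.03) and Retn (-0.02), hormones of white fat, did not pass. Block medians of Plin1 were -0.84 at numbers 1 to 20 and 0.42 at 21 to 40, and lay between -1.17 and -0.20 in all late blocks, so the early group itself held both kinds of animal. Near the break Plin1 stood at 0.09 (adjusted p = 0.859), and Scd1 (0.13), Dgat2 (0.11) and Pparg (0.07) also had the opposite sign.

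Brown fat genes split. Ucp1, the uncoupling protein of brown fat, ran from -3.48 over a median of -1.84 to 4.11 in early and from -3.63 over -2.65 to 3.51 in late animals and was lower (-0.75 ± 0.181, adjusted p = 0.000781). Its highest block median was -0.35 at numbers 121 to 128. The lipid droplet protein Cidea (-0.44 ± 0.122), the coactivator Ppargc1a (-0.17 ± 0.0499) and the proton channel Otop1 (-0.18 ± 0.0406) were lower, while Zic1 and the deiodinase Dio2 (0.24 ± 0.0523) were higher. Of the 11 brown fat genes measured, 4 were lower and 2 higher, against 12.3% and 17.9% of all genes. With the random block the calls of Cidea (adjusted p = 0.0852) and Ppargc1a (adjusted p = 0.0895) ended. Near the break Zic1 alone was called, and Otop1 (0.07), Cidea (0.09) and Ppargc1a (0.0018) had the opposite sign.

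Nerve and vessel wall genes were lower as well. Of 13 measured genes of nerve and Schwann cells 8 were lower and 0 higher (median -0.10), and 5 were called with the random block. The myelin genes Mbp (-0.41 ± 0.0826, adjusted p = 3.62e-05), Pmp22 (-0.30 ± 0.0559) and Mal (-0.35 ± 0.0594) and the Schwann cell protein S100b (-0.21 ± 0.0476) were lower. Near the break all 4 stood above 0, at 0.16 to 0.37, and Sox10, the factor of the Schwann lineage, differed over all animals by -0.03 (adjusted p = 0.178). Of 12 smooth muscle genes 6 were lower and 0 higher, against 12.3% and 17.9% of all genes. With the random block 5 of the 12 were called and near the break 0. Cnn1, a calponin of contractile smooth muscle, lay at -2.22, -0.02 and 1.60 in early and at -2.03, -0.70 and 1.43 in late animals and was lower (-0.56 ± 0.0769, adjusted p = 1.04e-09). The actin Acta2, the myosin Myh11 and the actin-binding Tagln each differed by -0.22.

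Several single genes were also lower in late animals. Cdc25a, a phosphatase that lets cells enter division, lay at -0.80, 0.05 and 1.08 in early and at -0.83, -0.25 and 0.30 in late animals and differed by -0.33 ± 0.0378 (adjusted p = 1.21e-13). The late group ended at 0.30, so the upper early values had no late counterpart. The water channel Aqp4 of fast fibres (-0.32 ± 0.0452), the translation repressor Eif4ebp2 (-0.41 ± 0.0634) and the Notch modifier Mfng (-0.38 ± 0.0624) were lower. Tinag, a basement membrane protein of kidney tubules (-0.31 ± 0.0544), the glutamine carrier Slc1a5 (-0.37 ± 0.0658) and the stem cell receptor Lgr5 (-0.33 ± 0.0587) were lower too. With the random block all of them were called and near the break none was, where Mfng (0.01), Slc1a5 (0.14) and Lgr5 (0.0038) had the opposite sign. Among 29 cell division genes 14 were lower and 3 higher, against 12.3% and 17.9% of all genes. With the random block 1 was called, as lower, and near the break 1, as higher.

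**Figure D4:**
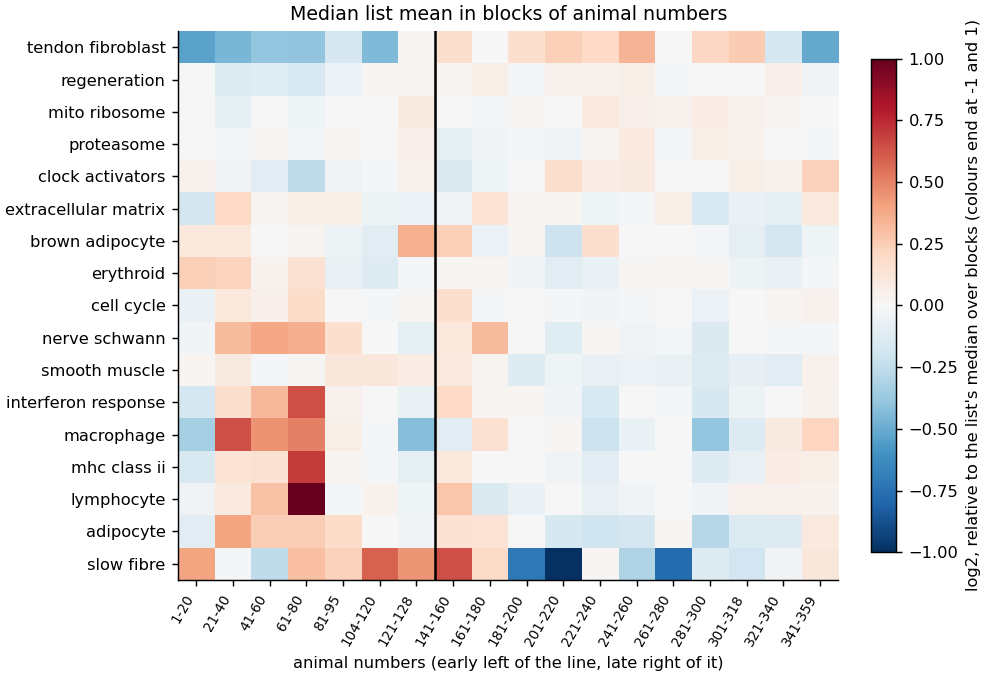
Colours give the median over arrays of the mean log2 ratio of each of 17 gene lists (rows) in 18 blocks of animal numbers (columns), relative to the median of the list over blocks, with early blocks left of the line. Tendon genes are low up to number 120 and again in the last block, lymphocyte genes are high at numbers 61 to 80 and slow fibre genes are low at 201 to 220.

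Within the early group, 243 genes (2.26%) had a slope on animal number with an adjusted p under 0.05, 63 rising (0.586%) and 180 falling (1.67%). Cdc25a fell by 0.75 per 100 numbers (SE 0.0729, adjusted p = 4.18e-14), from a block median of 0.67 at numbers 1 to 20 to -0.39 at 121 to 128. Eif4ebp2 fell by 1.08 (SE 0.128), the Golgi protein Glg1 by 0.56, the zinc finger factor Zbtb43 by 0.43, the telomere protein Terf2 by 0.41 and the vesicle fusion factor Nsf by 0.22. Rising were the segregase Vcp (0.29 ± 0.0418, adjusted p = 1.76e-07), the splicing factor Snw1 (0.24), the co-chaperone Ttc1 (0.25), the ring finger protein Rspry1 (0.31), the nuclear import factor Tnpo3 (0.28) and the phosphodiesterase Smpdl3a (0.26). All 12 were also called without numbers 1 to 20, where 863 genes rose and 683 fell.

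Red blood cell genes fell along the early numbers. Of 13 measured erythroid genes 5 fell and 0 rose within the early group, and 0 of 13 were called within the late group. Hbb-b1, a beta globin, fell by 1.41 per 100 numbers (SE 0.268, adjusted p = 0.000175) from a block median of 0.48 at numbers 1 to 20 to -0.90 at 104 to 120. Hba-a1, an alpha globin, fell by 1.41 and Alas2, the heme synthesis enzyme of red cells, by 0.50. Globin copies are near identical in sequence, so probes for Hbb-b1 and Hbb-b2 may not be told apart. Between the groups 4 of the 13 were lower in late animals and 0 higher, among them Hbb-b1 (-0.39 ± 0.131, adjusted p = 0.0157). Of all genes 12.3% were lower and 17.9% higher. With the random block and near the break 0 of the 13 were called. The call of Slc4a1, the anion exchanger of red cells, ended without numbers 1 to 20 (adjusted p = 0.0685).

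Within the late group 41 genes had a slope past the threshold (0.381%), 15 rising (0.140%) and 26 falling (0.242%). Clock genes led in both directions. Arntl, the activator that pairs with Clock, rose by 0.30 per 100 numbers (SE 0.0435, adjusted p = 4.83e-07). Nfil3, a repressor of D-box genes, rose by 0.29 (SE 0.0407, adjusted p = 8.38e-08), and Dbp, an activator of the same sites, fell by 0.12 (SE 0.0240, adjusted p = 0.00154). Of the 6 genes of the activating list, which also holds the repressor Nfil3, 2 rose within the late group (Arntl and Nfil3). Of the 10 of the repressed list 1 fell. Between the groups Arntl (0.29), Nfil3 (0.26) and Clock (0.10) were higher in late animals and Rora, a nuclear receptor that activates Arntl, was lower (-0.09 ± 0.0360, adjusted p = 0.0459, and 0.222 with the random block). Near the break none of the 6 was called, and Dbp over all animals differed by 0.02 (adjusted p = 0.618).

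Arntl and Dbp stood apart in the last block. Arntl lay between 0.43 and 1.70 on all 18 arrays of numbers 341 to 359 (median 0.94), against medians from -0.01 to 0.39 in the other late blocks. Dbp lay between -0.79 and -0.17 on the same 18 arrays (median -0.31), against medians from 0.01 to 0.27. Nfil3 went from -0.43 at numbers 141 to 160 to 0.36 at 321 to 340 and 0.72 in the last block. Without the arrays above number 340, Nfil3 still rose by 0.24 (adjusted p = 0.00362), and Arntl (0.15, adjusted p = 0.0727) and Dbp (-0.04, adjusted p = 0.456) no longer passed. Per1 (-0.03), Per2 (-0.17), Nr1d1 (-0.03) and Cry1 (0.05) had slopes that did not pass over all late animals. Sampling time is not among the labels, and its part in the result was not tested.

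The 250 bases before the start of the 3 clock genes Arntl, Nfil3 and Dbp are shown because these genes led the late slopes. Arntl and Nfil3 rose and Dbp fell. They are from RefSeq on GRCm38.p6, 5′ to 3′ on the strand of the gene, with motif matches on either strand in capitals. Arntl is at chr7:113207215-113207464 on the plus strand (the first of 2 start sites listed), Nfil3 at chr13:52981040-52981289 on the minus strand and Dbp at chr7:45704997-45705246 on the plus strand.
Arntl: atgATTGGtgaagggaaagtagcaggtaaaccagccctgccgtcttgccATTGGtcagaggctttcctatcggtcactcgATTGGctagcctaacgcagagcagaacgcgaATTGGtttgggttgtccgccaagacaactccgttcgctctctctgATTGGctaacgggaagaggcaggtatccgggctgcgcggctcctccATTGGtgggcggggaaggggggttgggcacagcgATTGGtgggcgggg
Nfil3: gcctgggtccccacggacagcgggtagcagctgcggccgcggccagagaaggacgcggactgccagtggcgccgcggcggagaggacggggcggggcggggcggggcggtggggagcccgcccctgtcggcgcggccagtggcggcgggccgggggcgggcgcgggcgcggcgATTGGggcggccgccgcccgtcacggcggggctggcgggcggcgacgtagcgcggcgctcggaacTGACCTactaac
Dbp: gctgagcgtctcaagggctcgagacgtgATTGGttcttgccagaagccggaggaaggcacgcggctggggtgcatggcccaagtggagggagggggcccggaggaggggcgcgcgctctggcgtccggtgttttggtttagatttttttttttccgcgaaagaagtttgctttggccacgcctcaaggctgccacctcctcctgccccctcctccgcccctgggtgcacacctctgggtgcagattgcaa

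The capitals mark the CCAAT box (CCAAT, or ATTGG on the other strand) and, in Nfil3, the nuclear receptor motif (AGGTCA, here TGACCT) at 12 to 7 bases before the start. Arntl holds 7 CCAAT boxes, as many as 3 of the 32851 windows of this length hold (0.00913%), whereas 33.9% hold at least 1, as Nfil3 and Dbp do. The overlapping window of the second Arntl start site holds as many, so those 3 windows may include Arntl more than once. AGGTCA is in 14.0% of all windows. The E-box CACGTG (6.02% of windows), the D-box TTATGTAA (0.819%), the AP-1 site TGACTCA (4.46%), the heat shock element TTCNNGAA (7.17%) and the CRE TGACGTCA (1.55%) match none of the 3. Both AGGTCA and the CCAAT box were searched after the values were seen. A match of letters is no shown binding site, and no match says only that the letters are not in the window.

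**Figure D5:**
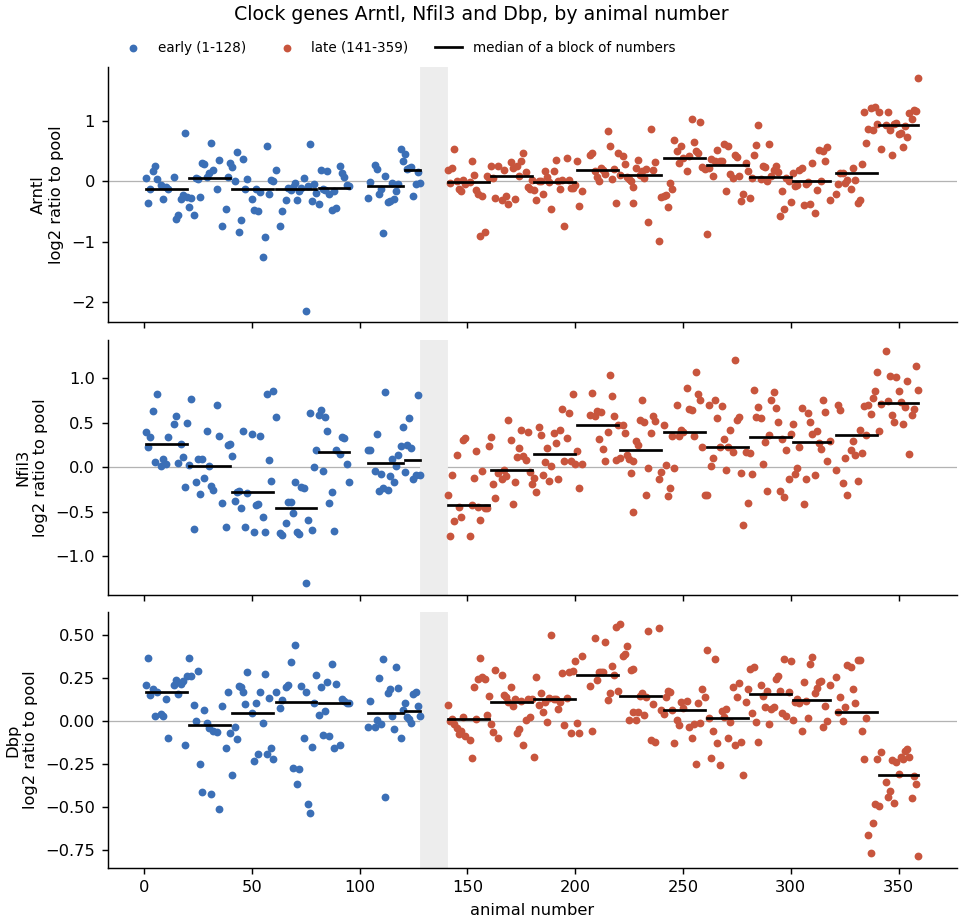
Log2 ratio to the pool (vertical axes) of Arntl, Nfil3 and Dbp against animal number, 1 point per array, early animals in blue and late in red, black bars the median of each block of 20 numbers. In the last block the 18 arrays of Arntl all lie at 0.43 or above and those of Dbp all at -0.17 or below.

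Beside the clock genes, Rictor, a part of the growth kinase complex mTORC2 (0.15 ± 0.0270), the receptor kinase Grk4 (0.10), Smpdl3a (0.09) and Serf1 (0.12) rose within the late group. The placental growth factor Pgf (-0.14), Pwwp3a (-0.10) and Plekha6 (-0.17) fell. Smpdl3a was thus called rising within each group on its own. Without the arrays above 340 the calls of Rictor (adjusted p = 0.0606), Pgf (adjusted p = 0.0670) and Plekha6 (adjusted p = 0.288) ended, and 48 genes rose and 62 fell. The difference between the early and the late slope was not tested.

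The spread of a gene between animals, taken as the mean distance of an array from its group's median, differed for 1038 genes (9.66%). It was smaller in the late group for 1018 (9.47%) and larger for 20 (0.186%). The 6 with the largest t among the 20 were genes of the sarcomere and of slow fibres. Myl2, the slow regulatory light chain, spread more widely by 0.43 ± 0.0899 (adjusted p = 0.00119), Myh7 by 0.49 ± 0.112, Tnnc1 by 0.40, Atp2a2 by 0.32, the Z-disc protein Myoz2 by 0.27 and the LIM protein Fhl2 by 0.21. Of the 11 slow fibre genes 8 were wider and 0 narrower. The fits of spread and of slopes treated arrays as independent and were not run with the random block. Myl2 had an r of 0.508 between neighbouring arrays and a block median of -3.09 at numbers 201 to 220. Its wider spread thus includes whole blocks of low arrays. Narrower were Usp6nl, a regulator of Rab5 (-0.11 ± 0.0166, adjusted p = 7.78e-07), the protocadherin Pcdh7 (-0.08), the helicase Dhx34 (-0.06), the corepressor Tle1 (-0.10), the carbonic anhydrase Car13 (-0.20) and Glg1 (-0.09). Of the macrophage genes 13 of 23, of the cell division genes 15 of 29 and of the lymphocyte genes 11 of 23 were narrower. With the lymphocyte score as a covariate, 9 genes were wider and 30 narrower.

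Neighbouring animals were alike in some genes and hardly in others. Over 317 pairs of arrays next to each other in number within a group, the median r of a gene was 0.0876, from -0.262 to 0.611, and 1033 of 10748 genes (9.61%) reached 0.2. The highest value belonged to Eif2s3y (0.611), the Y-linked gene described next. Next came Gstm2 (0.573), a glutathione transferase, and Cdk19 (0.565), a Mediator kinase. Tnnc1 reached 0.488, Myh7 0.487, Tbx1 0.471, Kera 0.396, Arntl 0.394 and Hoxa11 0.385, whereas Skap2 had 0.101. These values are descriptions without a test.

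No Y-linked gene passed the test between the groups. Eif2s3y, a translation initiation factor subunit, lay either between -6.49 and -3.71 or between -0.79 and 1.49, and no array lay on the opposite side at high positive values. The upper level held 53 of 110 early arrays (48.2%) and 102 of 209 late arrays (48.8%; two-sided Fisher's exact test, p = 1). By block that share ran from 21.1% at numbers 321 to 340 and 27.8% at 61 to 80 to 72.2% at 341 to 359, so the sexes were unevenly spread over the blocks that stood apart in lymphocyte, tendon and clock genes. The part of sex in those block values was not tested. A pool of both sexes lies between animals with and without a Y chromosome, and animals without one lie far below it, so positive ratios mean that the animal's level exceeds the pool's. Eif2s3y (-0.0044, adjusted p = 0.995), Kdm5d (0.14), Usp9y (-0.01) and Zfy2 (0.02) had no call. Genes known to differ between the parental strains or fixed by design served as a comparison for Skap2. Of these 0 of 6 were called, against 30.2% of all genes. The securin Pttg1 was at -0.69 ± 1.57 (SD, n = 110) early and -0.39 ± 1.51 (SD, n = 209) late, the interferon-inducible Ifi202b at -0.45 ± 1.12 and -0.47 ± 1.04, and the transhydrogenase Nnt at -0.15 ± 0.757 and -0.18 ± 0.735.

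Blank values, which carry no ratio, differed between the groups for few probes. Of 2925 probes with any blank, 15 (0.513%) were blank more often in late and 11 (0.376%) more often in early animals (Fisher's exact test per probe, Benjamini-Hochberg adjusted). Among named genes blank more often in late animals were abundant genes of muscle. A probe of the glycolytic Aldoa was blank on 35 of 110 early (31.8%) and 140 of 209 late arrays (67.0%, adjusted p = 2.16e-06), a probe of creatine kinase Ckm on 47.3% and 79.4%, and a probe of myoglobin Mb on 10.9% and 31.1%. Blank more often in early animals were Rcan2 (45.5% and 17.2%) and Tpt1 (60.9% and 35.9%). The labels do not say why a value was left blank.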

How the data were processed

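RNA of each animal (Cy3) was hybridised with a pool (Cy5) on 2-colour arrays, per the labels. The authors deposited log10 ratios for 23382 probes, which end at -2 and 2. Base and direction are not in the labels: the base was taken from these ends and the direction from Y-linked genes. Background correction and normalization are not given in the sources used here. Of the values 0.654% were blank. Ratios were converted to log2, and probes with values on at least 80% of each group's arrays were kept (23169). The platform annotation names a single gene for 13639 probes, several genes for 48 and no gene for 9695. RefSeq (GRCm38.p6) supplied current names for 12647 probes of 10831 genes, and 10748 genes were tested as means of their probes. Of 540 genes with 2 or more probes and at least 1 called probe, 32 had probes called in both directions.

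Late minus early was fitted with limma 3.58.1 in R 4.3.3, and calls were made at a Benjamini-Hochberg adjusted p of 0.05. Slopes on number per 100 animals were fitted within each group, and spread as absolute distances from the group median. Neither was fitted with the random block. Array measures used 100000 permutations (scipy 1.17.1). The scripts were tested on simulated data. Blocks are 20 consecutive numbers within a group. The labels do not say how animals were sampled. Except with the random block, p values take the arrays as independent, although neighbouring arrays were alike in some genes. No array is numbered 129 to 140. Number 227 appears on a second array, which was kept. Of the arrays with that number 1 lies out of number order among the samples, so they may not be of the same animal. A late sample has different numbers in its title and source name, both of them late.

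The members and the 49 lists (672 of 954 genes tested) were chosen with earlier results of these data known. Named genes are the 12 of largest t in each direction among called genes of at least 0.3 with under 1% of values at the ends, the 6 of largest difference, up to 4 called members of each list described and up to 2 called the other way, the Y-linked genes, and the 6 of largest t each way for slopes and spread. Genes outside this rule (position factors, Ppp6r2, clock genes and further list members) were singled out after their values were seen. Other normalizations, filters, weights and covariates were tried.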

Additional observations from a re-analysis of the deposited data

How the results depend on the processing

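No paired analysis was possible because the groups share no animal numbers. Of the 61 genes named for their difference 57 were called. All 57 kept direction and call with array medians subtracted, quantile normalization, a looser filter on blanks and values at the ends removed. They also did so with moderated variance trend and the probe of largest SD. Number as a covariate left all 57 calls too, but it was centred within each group. It could therefore hardly change the difference and does not test drift along the numbers. The call ended for 7 with array weights, 18 with the random block, 16 with the lymphocyte score, 55 near the break (31 of them with the opposite sign) and 37 (7 of them with the opposite sign) with the means of 4 lists (tendon, slow fibre, lymphocyte, adipocyte) as covariates. That last setting, and leaving out numbers above 340 or up to 20, were chosen after seeing the data. In each case below the cause was not tested.

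Genes higher and lower numbered 1023 and 726 with the lymphocyte score, 405 and 208 with the random block (probes 914 and 419), 14 and 25 near the break, and 680 and 404 with the 4 means. Those of at least 0.3 numbered 50 higher and 96 lower after quantile normalization, 4 and 2 near the break, and 6 and 12 with the 4 means. Lower ones of that size numbered 120 without 20 arrays of outlying SD, 45 with array weights, and 43 with the lymphocyte score as with the random block. Early slopes rising and falling numbered 321 and 512 after quantile normalization, 177 and 415 without arrays of outlying SD, and 863 and 683 without numbers up to 20. Late slopes numbered 34 and 68, 33 and 62, and, without numbers above 340, 48 and 62, and 41 fell with the lymphocyte score. Wider and narrower spread numbered 40 and 446 after quantile normalization, 9 and 30 with the lymphocyte score, and 32 were wider without arrays of outlying SD.

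Near the break these genes had the opposite sign: Mfng 0.013, Mal 0.21, Slc1a5 0.14, Lgr5 0.0038, Plin1 0.088, Cd22 0.75, Ptprcap 0.54, Ccr6 0.56, Pou2af1 0.47, Dgat2 0.11, Scd1 0.13, Pparg 0.068, Otop1 0.070, Cidea 0.088, Ppargc1a 0.0018, Ms4a1 0.20, Cd3g 0.38, Cxcr5 0.39, Cd79b 0.30, Mrpl23 -0.028, Mrpl28 -0.030, Mrpl16 -0.021, Pmp22 0.25, Mbp 0.37, S100b 0.16, Myf5 -0.022, Igf1 0.20, Tnni1 0.053, Myh7 0.23, Atp2a2 0.082, Tnnc1 0.055, Eif2s3y 0.22 and Zfy2 -0.027. With the 4 means as covariates they were Egfl6 -0.0026, Cd22 0.031, Ccr6 0.0029, Pou2af1 0.0029, Dio2 -0.0086, Cxcr5 0.00040, Myh7 0.014, Kdm5d -0.22 and Zfy2 -0.0095. Eif2s3y, near 0 in all, stood at 0.17 without arrays of outlying SD and 0.011 without the second array numbered 227. The files give no signal over background, so what dim probes limit is unknown.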

Other observations

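A few late animals carried high levels of genes of the kidney tubule, which were chosen after their values were seen. Of 6 such genes (Kap, Slc34a1, Pdzk1, Cdh16, Lrp2 and Slc22a6), 4 or more lay above 1 log2 unit on 9 of 209 late arrays and on 0 of 110 early arrays. The 9 animals had the numbers 198, 250, 264, 266, 272, 285, 288, 294 and 301. Kap, an androgen-regulated kidney protein, reached 5.35 in late and 0.51 in early animals, with medians of -0.02 and -0.06. Slc34a1, the phosphate carrier of the proximal tubule, reached 4.95 and 0.70. The values are given as measured.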
